A study of Mus musculus with 2 samples.

Results

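Accessible sites in the introns of very long genes were examined by DNase-seq of left cerebral cortex from 2 males of strain B6CASTF1/J, F1 hybrids of C57BL/6J and CAST/EiJ, aged 36 days. Both animals had the same strain, sex and age and no treatment is named in the labels, so there was 1 group, with 1 library per mouse, called replicate 1 and replicate 2 here. In DNase-seq, nuclei are treated with the nuclease DNase I and cut positions are sequenced, so that a peak marks DNA open to the enzyme. The tissue holds many cell types, and a low peak cannot tell few cells with an open site from weak opening in many cells. With 2 mice and no second group there is no test across animals, so values of both mice are given side by side, and every interval covers counting error only.

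Sites were made by merging the peaks of both mice where they overlapped or touched, which gave 82968 sites, 43755 of them with a peak in each mouse. A long-gene site is a site of both mice whose midpoint lay in an intron, outside every annotated exon and over 1 kb from every start site, of a protein-coding gene of 300 kb or more on chromosomes 1 to 19 and X, in mm10. There were 3023 such sites, marked as members in the plots. The annotation held 556 genes of that length after 11 predicted genes with Gm names were left out, together with 75 sites that lay in these alone. The genes just inside the limit were Kcnq3 (300.3 kb), Pam (300.5 kb) and Nxph1 (300.6 kb), with 7, 4 and 1 long-gene sites, and those just outside were Jazf1 (299.8 kb), Akap13 (299.1 kb) and Atp2b2 (298.8 kb), with 7, 2 and 9 intronic sites.

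Genes of this size are rare in the genome and frequent among genes used by neurons, where they encode adhesion molecules, receptors, ion channels and scaffolds of the synapse. Almost all of their length is intron, and introns can hold enhancers, insulator elements bound by CTCF and alternative promoters. Transcription factors on open DNA can shield a few bases from DNase I, and such a stretch of low cutting inside a peak is called a footprint.

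The peak lists held 72021 peaks in replicate 1 and 59150 in replicate 2. The heights in a library rose in equal steps, taken as the worth of 1 cut, from which depths of 160.1 and 145 M cuts were inferred, and heights below are in these depth-scaled units. Promoters of forebrain and cortical neuron genes held a peak in both mice for 7 of 8 genes, among them Tbr1, Slc17a7, Neurod6, Camk2a and Snap25, and Gad1, which makes GABA, had a peak of 1.22 in replicate 1 and none listed in replicate 2. For glial and vascular genes the count was 2 of 6, Gfap and Mbp. Aldh1l1 had a peak of 1.09 in replicate 1 alone, and Mog one of 0.750 in replicate 2 alone. None was listed in either mouse at Cx3cr1 of microglia and Cldn5 of endothelium. For genes of other tissues the count was 1 of 6, Ckm.

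The sequences below are those of the highest site in each of 5 genes among those with the most long-gene sites, and of a Mid1 site that stands among the highest and the most footprinted of all. They show which bases were footprinted. The site given under Fgfr2 lies in the span of 1 long transcript of that gene and outside the span of all its others, as described below. Each is read 5′ to 3′ on the plus strand of the RefSeq GRCm38.p6 assembly, the C57BL/6J sequence, while the mice also carry a CAST/EiJ copy of each autosome. Capitals mark bases inside a footprint in both mice. The positions are chr7:132551841-132552040 for Fgfr2, chr11:81096041-81096280 for Asic2, chr8:15994621-15994920 for Csmd1 (300 bases around the middle of a site of 340), chr16:6018761-6018960 for Rbfox1, chr4:151141621-151141840 for Camta1 and chrX:169998011-169998310 for Mid1 (the middle of a site of 520).
Fgfr2: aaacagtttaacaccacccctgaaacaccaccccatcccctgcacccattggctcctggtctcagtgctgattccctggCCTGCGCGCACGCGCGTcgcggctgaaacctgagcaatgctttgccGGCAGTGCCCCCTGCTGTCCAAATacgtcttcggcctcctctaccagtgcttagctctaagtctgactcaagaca
Asic2: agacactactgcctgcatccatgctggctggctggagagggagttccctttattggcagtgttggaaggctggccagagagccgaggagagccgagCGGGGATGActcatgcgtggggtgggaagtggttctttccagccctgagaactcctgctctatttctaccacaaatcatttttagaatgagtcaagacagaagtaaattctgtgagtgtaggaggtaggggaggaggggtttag
Csmd1: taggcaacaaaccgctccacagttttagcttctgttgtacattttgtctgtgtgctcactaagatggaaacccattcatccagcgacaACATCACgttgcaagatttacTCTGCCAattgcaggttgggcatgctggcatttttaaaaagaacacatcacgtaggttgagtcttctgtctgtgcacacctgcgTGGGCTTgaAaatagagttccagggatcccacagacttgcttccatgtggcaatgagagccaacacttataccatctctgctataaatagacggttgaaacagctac
Rbfox1: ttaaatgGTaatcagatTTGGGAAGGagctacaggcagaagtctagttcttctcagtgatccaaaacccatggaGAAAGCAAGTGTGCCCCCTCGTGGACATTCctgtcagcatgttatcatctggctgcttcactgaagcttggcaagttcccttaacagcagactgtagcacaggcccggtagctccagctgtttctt
Camta1: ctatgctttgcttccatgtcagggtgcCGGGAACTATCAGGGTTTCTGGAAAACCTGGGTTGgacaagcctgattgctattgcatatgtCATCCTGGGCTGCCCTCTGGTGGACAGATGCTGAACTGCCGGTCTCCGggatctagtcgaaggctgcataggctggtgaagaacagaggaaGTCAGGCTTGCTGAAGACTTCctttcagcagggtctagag
Mid1: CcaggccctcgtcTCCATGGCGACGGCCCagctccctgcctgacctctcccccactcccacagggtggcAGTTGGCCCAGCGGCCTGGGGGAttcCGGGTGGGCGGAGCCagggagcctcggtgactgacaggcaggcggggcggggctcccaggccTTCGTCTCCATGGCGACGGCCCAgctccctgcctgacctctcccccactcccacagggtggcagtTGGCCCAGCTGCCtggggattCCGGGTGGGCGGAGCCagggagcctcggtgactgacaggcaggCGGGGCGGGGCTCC

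At the Camta1 site 104 of 220 bases were footprinted in both mice, the largest share of the 5 genes. A long capital run there holds a match to the CTCF core pattern and the letters CAGATG, an E-box of the kind bound by NeuroD-type bHLH factors. The Rbfox1 site had 41 footprinted bases, and its longest capital run covers a match to the stricter CTCF pattern. The Fgfr2 site also had 41, with a match to the pattern of NRF1, a factor of CpG-rich promoters, in capitals. The Asic2 site holds a match to the AP-1 pattern TGANTCA, the site of Fos and Jun dimers, that was not capitalised over at least 50% of its letters, and had 9 footprinted bases. The Csmd1 site had 22, and a match to TTGGCA, the monomer pattern of NFI factors, on the minus strand there was capitalised over most but not all of its letters. The Mid1 window had 121 and a GC content of 73.3%, with the SP/KLF pattern GGGCGG and the E-box CAGCTG in capitals. A match describes letters and does not show that a factor was bound.

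Long-gene sites were spread thinly. There were 10.1 per Mb of intron (95% Poisson interval 9.70 to 10.4), against 14.3 (13.8 to 14.7) in genes of 100 to 300 kb, 14.5 (14.1 to 14.97) in genes under 100 kb and 9.04 (8.89 to 9.19) outside coding genes, all by the same distance and exon limits. Counted in each mouse alone, density in long genes was 16.9 per Mb for replicate 1 and 15.1 for replicate 2 (16.0 ± 1.29, SD, n = 2), and in genes under 100 kb it was 26.0 and 19.7 (22.9 ± 4.45). Long genes had the lower density in both mice, at 0.65 and 0.76 times that of genes under 100 kb. Among long genes, density was 11.4 per Mb at 300 to 400 kb and 12.4 at 400 to 500 kb, and 8.38 at 1000 kb and over.

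**Figure D1:**
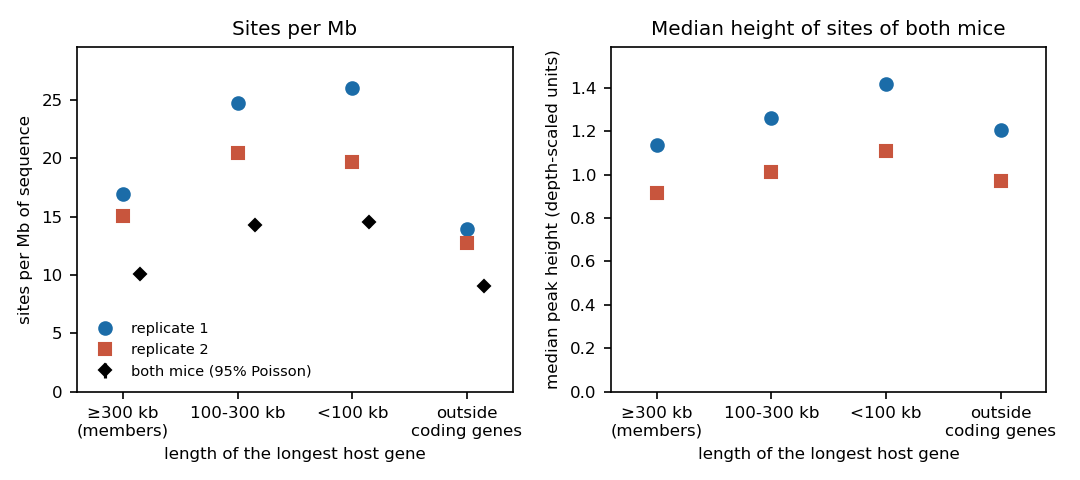
Left, sites per Mb (vertical axis) in introns of genes of 300 kb or more, 100 to 300 kb and under 100 kb and outside coding genes, for each mouse alone (circles, squares) and for sites of both mice (diamonds, bars are 95% Poisson intervals and mostly smaller than the symbol). Right, the median peak height of sites of both mice, in depth-scaled units. Long-gene sites lie at 10.1 per Mb, below both shorter classes, and are the lowest in height in both mice.

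The order changed when genes of like base composition were set side by side. Introns of long genes had a GC content of 40.5%, against 42.6% in genes of 100 to 300 kb and 43.6% in genes under 100 kb. In genes whose introns had 40 to 42% GC, there were 10.4 long-gene sites per Mb (9.55 to 11.2), against 7.08 (6.34 to 7.89) in genes under 100 kb. At 42 to 44% GC, the densities were 15.4 (14.3 to 16.6) in long genes and 10.3 (9.44 to 11.3) in genes under 100 kb. Long genes were thus denser than genes under 100 kb in each class below 44% GC, with overlapping intervals at 44 to 46% (19.4 against 17.4 per Mb). At 46 to 48% GC they had the lower values, 20.04 per Mb (17.2 to 23.2), against 24.8 (22.8 to 26.9) in genes of 100 to 300 kb and 21.6 (20.1 to 23.2) in genes under 100 kb. At 48% and over they were lower again, at 27.1 (23.2 to 31.5), against 31.8 (29.6 to 34.2) and 32.2 (30.7 to 33.8), with overlapping intervals. Below 38% GC the densities were 3.55 (3.15 to 4.00) in long genes, 4.85 (4.00 to 5.82) in genes of 100 to 300 kb and 1.97 (1.47 to 2.58) in genes under 100 kb. When each class was weighted to the GC content of long introns in 7 classes, a comparison added after the data were seen, long genes had 10.1 sites per Mb, against 9.99 in genes of 100 to 300 kb and 7.60 in genes under 100 kb. The same weighting gave 16.9 and 15.1 per Mb in long genes in the mice alone, against 12.9 and 11.3 in genes under 100 kb. The order of long genes and genes under 100 kb thus depended on the class of GC, and the weighted values mostly reflect the classes below 44%, where most long introns lie.

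**Figure D2:**
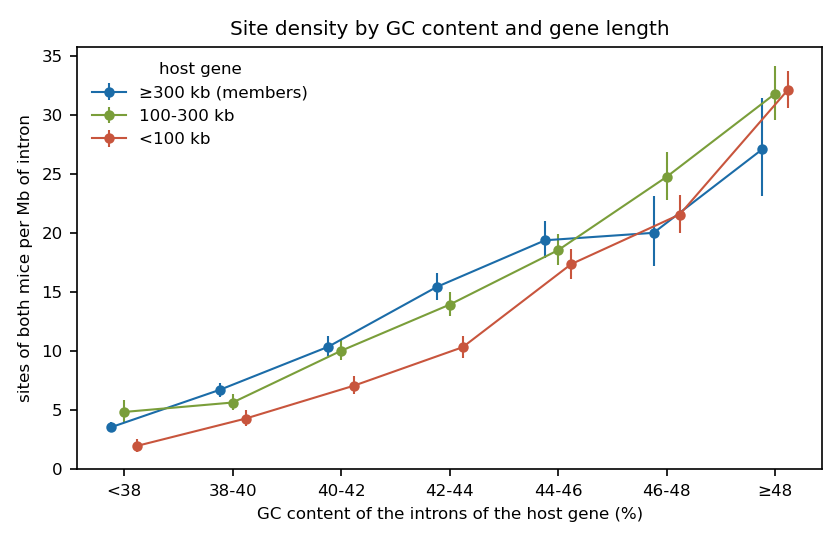
Sites of both mice per Mb of intron (vertical axis) by the GC content of the host gene's introns (horizontal axis, %), for genes of 300 kb or more, 100 to 300 kb and under 100 kb. Bars are 95% Poisson intervals. Density climbs with GC content in all 3 classes, and genes under 100 kb lie lowest in every class of GC under 46%.

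Single long genes differed widely. A gene held a median of 4 sites (quartiles 2 and 8) and 8.48 sites per Mb (3.89 and 16.0), with 516 of 556 genes holding at least 1 and 40 holding none. Across the 556 genes, density went with intron GC content (Spearman correlation 0.73, Pearson correlation 0.71) and against the share of repeats (Spearman -0.63, Pearson -0.56). These points come from the same 2 libraries, and the correlation is a description. In 4 groups of 139 genes, from the lowest to the highest GC content, density was 4.05, 7.74, 12.2 and 19.6 per Mb. The mice differed along this order: the lowest group had 588 sites in replicate 1 and 674 in replicate 2, and the highest had 2239 and 1695. The part of library differences in GC content in the relation was not tested.

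Fgfr2, a receptor tyrosine kinase for fibroblast growth factors, headed the count with 55 sites, but only through its annotation. Its span of 2960.9 kb comes from 1 of 27 transcripts. The other transcripts span 103.8 kb, which held 2 of the 55 sites, and 29 other coding genes lie inside the long span. RefSeq gives the gene 104 kb. In all, 550 of the 556 genes were matched to RefSeq by symbol, and 19 of them, with 125 sites, were under 300 kb there, among them Rasgef1b, Nfib and Slc7a11.

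After Fgfr2 came Asic2, a subunit of acid-sensing ion channels, with 33 sites, 31.0 per Mb (21.3 to 43.5), from 52 sites in replicate 1 and 36 in replicate 2. Csmd1, a transmembrane regulator of complement, held 28. The splicing factor Rbfox1 held 26, the calmodulin-binding transcription activator Camta1 24, the postsynaptic scaffold Dlg2 24 and the presynaptic neurexin Nrxn3 23. Next came the cadherin Cdh13, the guanine nucleotide exchange factor of dendritic spines Kalrn and the neuron navigator Nav2, with 21 each. Anks1b, Auts2, Maml3, Pde4d and Ptprn2 held 19 each, Lsamp and Msra 18, and Ctnna2 and Dab1 17. The 20 genes with the most sites, Fgfr2 included, held 467 sites, 15.4% of the total, in 7.85% of the intron sequence. The last 2 places were filled in alphabetical order from 8 genes tied at 17 sites, and other choices among them gave 7.39% to 7.85%.

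Counts of sites and density picked different genes. Lsamp, an adhesion protein of limbic neurons, held its 18 sites in 2.16 Mb of intron, 8.34 per Mb (4.94 to 13.2), and Msra, a methionine sulfoxide reductase, held the same number in 0.322 Mb, 55.9 per Mb (33.1 to 88.4), the highest density among genes with at least 5 sites. Maml3, a coactivator of Notch, followed with 53.0 per Mb, then Myt1l, a neuronal zinc finger repressor, with 46.5, the GABA-B receptor subunit Gabbr2 with 44.1 and the postsynaptic scaffold Shank2 with 42.9. Gse1, Ldlrad4, Pdzd2, Kalrn and the protein kinase C Prkce lay between 36.1 and 39.5. The intervals of these 10 genes overlapped one another. Their introns had 43.9 to 54.1% GC, above the median long gene at 40.7%.

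Msra had 46 sites in replicate 1 and 21 in replicate 2. Its introns also held 7 sites of both mice within 50 kb, as did those of Anks1b, the most in any such window. Camta1, Maml3, Myo16, Myt1l, Prkce and Trpm3 each had a window with 6.

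The longest genes with no site of both mice were Naaladl2 (1346 kb), the sarcoglycan Sgcz (1139 kb), the synaptic adhesion protein Lrrtm4 (791 kb), Mgat4c (710 kb) and the kainate receptor subunit Grik2 (694 kb). A count of 0 in Naaladl2 allows up to 2.79 sites per Mb, and in Grik2 up to 5.67. Naaladl2 had 3 sites in replicate 1 and 2 in replicate 2, none at the same place, and Mgat4c had none in either mouse. All 5 had introns of 35.6 to 37.5% GC. Grik4, a kainate receptor subunit with introns of 47.9% GC, held 13.

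**Figure D3:**
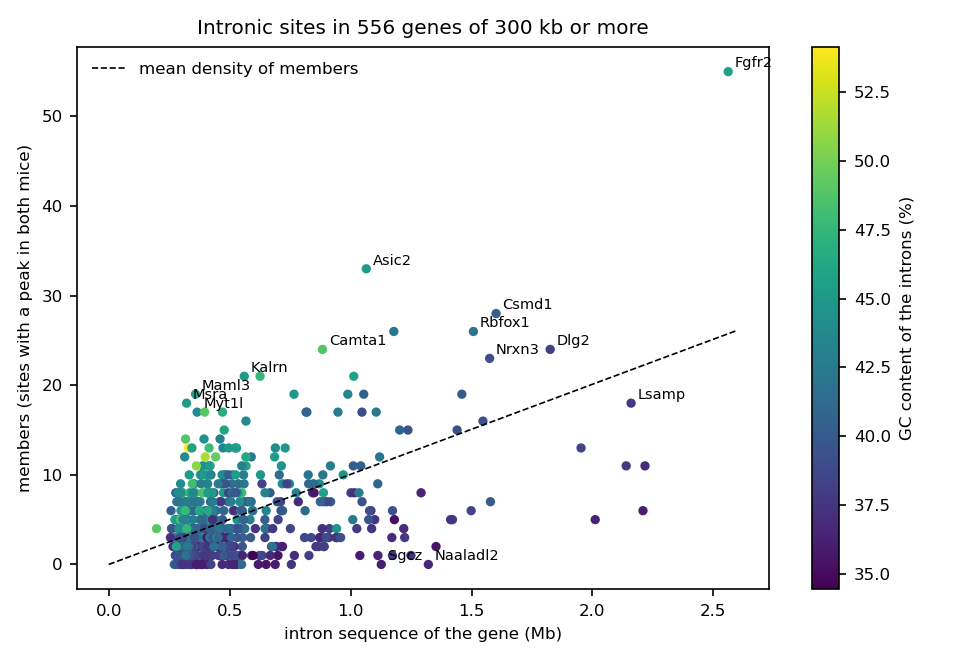
Long-gene sites per gene (vertical axis) against the gene's intron sequence (horizontal axis, Mb), 1 point per gene, coloured by the GC content of its introns; the dashed line is the mean density. Asic2 with 33 sites and Msra with 18 lie well above the line, and Naaladl2 and Sgcz lie at 0 with low GC content.

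By the role of the host gene, the median density ran from 5.00 to 12.7 per Mb among 11 lists of genes, beside 8.48 over all long genes. Counts of genes holding a site, given below for some lists, stand beside 516 of 556 for all long genes. Kinase and cyclic nucleotide signalling stood at 12.7 per Mb, with all 34 of its long genes holding a site and Fgfr2 and Pde4d, a cAMP phosphodiesterase, holding the most. Without Fgfr2 the median was 12.5. RNA-binding factors, led by Rbfox1 and Rbfox3, stood at 12.5 over 6 genes. Transcription factors, led by Camta1 and Auts2, stood at 11.8, with 28 of 31 genes holding a site and none in Dach1, Foxp2 and Mecom. Glutamate and GABA receptors, led by Gabbr2 and Grik4, stood at 11.5, with 16 of 17 genes holding a site. Synaptic scaffolds and release genes, led by Dlg2 and Anks1b, stood at 10.3, and ion channels, led by Asic2 and Trpm3, at 8.97, with a site in every gene of both lists.

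Adhesion and guidance genes were sparser. Cell adhesion genes, led by Nrxn3 and Cdh13, had a median of 7.63 per Mb. Of these, 47 of 50 held a site, beside 516 of 556 over all long genes, with none in Cntn6, Lrrtm4 and Pcdh7. Axon guidance genes, led by the ligand Slit3 and the semaphorin receptor Plxna4, had 7.53. Genes at chromosomal fragile sites, with the most in Csmd1, had a median of 9.01, above the 8.48 of all long genes. The order depended on the measure. Pooled over their introns, fragile-site genes had 8.76 per Mb (7.59 to 10.1) and ion channels 12.1 (10.5 to 14.0), against 10.1 in all long genes. The list of glial and vascular genes, where Ntm and the cAMP phosphodiesterase Pde4b held the most, had a median of 6.85. A place on this list or the next does not mean that a gene is used in those cells or tissues alone, or mainly there. Genes known from other tissues, led by Gpc6 and Thsd4, had the lowest, 5.00, with none in Mecom and the muscle gene Trdn. The median GC content of the introns was 37.96% for guidance and 38.5% for adhesion genes, against 42.1% for signalling genes and 42.7% for transcription factors, and its part in the order of the lists was not tested.

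By distance from the gene start, sites stood closest in the first 10 kb. There were 21.2 per Mb (17.1 to 26.0) less than 10 kb from the gene start, and 9.53 to 11.9 in every class of distance beyond that. Only 94 of the 3023 sites lay in that first stretch. The first intron held 22.3% of the sites and 21.2% of the intron bases. With each gene split into 10 equal parts, density was between 8.22 per Mb in part 7 and 12.01 per Mb in part 10, the end of the gene. Part 1, the start, had 10.9 per Mb (9.76 to 12.2). The median long-gene site lay 28.7 kb from the nearest start site of any gene, against 5.65 kb for intronic sites of genes under 100 kb, and 31.7% lay over 50 kb away. Gene length itself limits this distance, since a point in a gene under 100 kb lies within 100 kb of that gene's start. No like distance of the intron bases is given here, so these values do not single out the sites. The nearest other site of the same gene was at a median of 24.7 kb, and 18.5% of sites had another within 5 kb.

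On the X chromosome, 24 long genes held 44 sites, 3.04 per Mb (2.21 to 4.08), against 10.4 (10.1 to 10.8) on the autosomes. Male mice carry X once outside the pseudoautosomal region, whose boundary lies in Mid1, a gene with 5 of these sites. Median heights were 0.668 in replicate 1 and 0.523 in replicate 2 on X, against 1.14 and 0.922 on the autosomes. Both measures were lower on X in both mice. The introns on X had 38.1% GC, against 40.8% on autosomes. Long genes with introns below 38% GC, X included, had 3.55 sites per Mb, and those of 38 to 40% GC had 6.72. The parts of copy number and base composition in the values on X were not tested.

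Long-gene sites were also lower. At long-gene sites the median height was 1.14 for replicate 1 and 0.915 for replicate 2, against 1.26 and 1.01 in genes of 100 to 300 kb and 1.42 and 1.11 in genes under 100 kb. They stood at 0.802 and 0.826 times the height of sites in genes under 100 kb, so the 2 mice gave like ratios. Over the mice the height was 1.03 ± 0.157 in long genes and 1.26 ± 0.219 in genes under 100 kb (SD, n = 2). Both classes come from the same 2 libraries. These SDs thus hold the difference between the libraries and do not measure the spread of the difference between the classes. The direction of that difference was the same in each mouse.

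The 10 highest long-gene sites lay in 9 genes. A Mid1 site on X (chrX:169997901-169998420) reached 10.4 in replicate 1 and 14.1 in replicate 2, and another in the same gene reached 6.89 and 6.85. Mid1 encodes a microtubule-bound ubiquitin ligase and spans the boundary of the pseudoautosomal region in laboratory mice. Long stretches of the printed Mid1 window recur within it, and the part of repeated sequence in its height and footprints was not tested. Gphn, the gephyrin scaffold of inhibitory synapses, had a site of 16.3 and 7.99, and Nol4 one of 7.79 and 7.30. Camta1 had a site of 6.59 and 6.77, the gene of the nuclear factor Nfia one of 8.44 and 4.54, and that of Nfib one of 9.16 and 2.76. Rasgef1b, Myt1l and Gse1 completed the 10 highest, at mean heights of 5.43 to 5.82. The order within these 10 changed with the mouse: Gphn came first in replicate 1 and Mid1 in replicate 2.

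Heights ran higher in replicate 1. The median ratio of replicate 1 over replicate 2 was 1.23 among long-gene sites, 72.0% of which were higher in replicate 1. The direction rests on the scale of the heights: divided by each library's median over sites of both mice, the median log2 ratio was -0.20, against 0.30 as deposited. A ratio of 2 or more in favour of replicate 1 was seen at 269 long-gene sites (8.90%), beside 18.2% of all sites of both mice, and in favour of replicate 2 at 15 (0.496%), beside 0.471%. Other introns were alike, with 9.52% in genes of 100 to 300 kb and 9.17% in genes under 100 kb in favour of replicate 1. The share was thus similar in the 3 classes of introns. Across the 3023 sites the heights of the mice went together with a Spearman correlation of 0.70, as a description of 2 libraries.

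**Figure D4:**
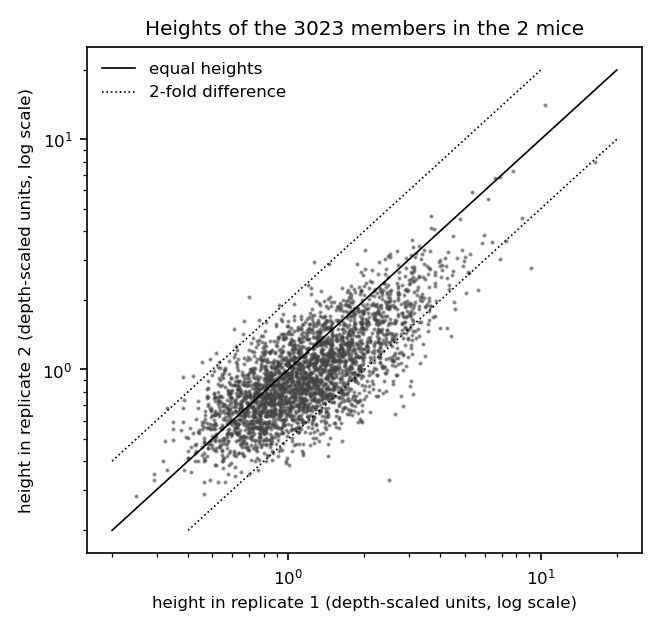
Height of each of the 3023 long-gene sites in replicate 1 (horizontal axis) and replicate 2 (vertical axis), in depth-scaled units on log scales; the solid line marks equal heights and dotted lines a 2-fold difference. Most points lie below the solid line, 269 reach the lower dotted line and 15 the upper.

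The largest differences lay in single sites. Il1rapl1, a synaptic adhesion protein on X, had a site of 2.50 in replicate 1 and 0.330 in replicate 2, a ratio of 7.57, and repeats made up 73.7% of its window. Zmat4 (2.65 and 0.640) and the sodium-proton exchanger Slc9a9 (2.84 and 0.695) followed. In favour of replicate 2 were sites in Ank3, the ankyrin of the axon initial segment (0.700 in replicate 1 and 2.07 in replicate 2), Rbfox1 (0.606 and 1.49) and Nrxn3 (0.381 and 0.929). None of these 6 had a difference that can be tested with 1 library per mouse.

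Nearly every long-gene site held a footprint. The share was 96.0% (95% Wilson interval 95.2 to 96.6) in replicate 1 and 96.3% (95.6 to 96.9) in replicate 2, against 97.2% and 97.3% in genes under 100 kb, and 92.9% held one in both mice. Only 18 sites had none in either. The difference from genes under 100 kb turned to 0.0873 percentage points higher at long-gene sites with the higher 50% of peaks, and to 0.66 points higher with replicate 1 alone. A site held 2.73 footprints in replicate 1 and 2.66 in replicate 2 on average, against 2.83 and 2.78. Among sites of the lowest of 4 classes of height, 92.3% and 92.4% of long-gene sites held a footprint, against 92.8% and 90.7% in genes under 100 kb, so that the intervals of the classes overlapped at like height.

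Wide footprints took a smaller share at long-gene sites than in genes under 100 kb. Those of 20 bp or more made up 10.99% in replicate 1 and 13.0% in replicate 2, against 16.6% and 19.2% in genes under 100 kb. In the lowest class of height the shares were 4.12% and 6.23%, against 6.95% and 8.61%, and in the highest 19.1% and 20.4%, against 21.3% and 25.5%. Long-gene sites were below genes under 100 kb in all 4 classes of height in both mice. Genes of 100 to 300 kb lay nearer to long genes, at 12.2% and 14.7%. Their shares were 4.49% and 6.18% in the lowest class of height and 19.4% and 21.9% in the highest. Footprints of replicate 1 were found in replicate 2 for 40.6% of those at long-gene sites, and the reverse for 41.0%. In genes under 100 kb these values were 48.6% and 47.9%.

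The sites with the most footprints were in Fgf14, a regulator of sodium channels, with 15 in replicate 1 and 11 in replicate 2 over 1700 bp, in Mid1 with 11 and 15, and in the teneurin Tenm4 with 11 in each. Gabrb1, a GABA-A receptor subunit, had a site with 13 and 8. The sites of Fgf14 and Tenm4 were wide and of middling height, 1.49 and 0.915 for Fgf14 and 1.85 and 1.08 for Tenm4, while the Mid1 site was among the highest. In the middle 300 bases of the Fgf14 and Tenm4 sites, 3 and 0 bases were footprinted in both mice, against 121 at Mid1.

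The letters under the sites differed from those of shorter genes. In windows of 300 bp around the middle, searched on both strands, the CTCF core pattern was in 15.2% of long-gene sites (14.0 to 16.6), against 26.2% (24.8 to 27.5) in genes under 100 kb and 23.8% outside coding genes. Genes of 100 to 300 kb stood at 19.2% (17.9 to 20.5). Flanks 1 kb away held the core pattern in 3.42% of windows in long genes and 6.60% in genes under 100 kb. The ratio of sites to flanks was thus 4.45 in long genes and 3.96 in genes under 100 kb. The stricter CTCF pattern, whose matches all match the core pattern too, was in 5.03%, against 9.96% in genes under 100 kb. In genes of 100 to 300 kb it was in 6.57%. Its flanks stood at 0.232% in long genes and 0.612% in genes under 100 kb, with ratios of sites to flanks of 21.7 and 16.3. Of the long-gene sites that hold it, 88.2% had a match inside a footprint in each mouse. CTCF is the protein that holds chromatin loops and insulates neighbouring domains. In each of the 4 classes of height, the core pattern had a smaller share at long-gene sites than in genes under 100 kb. It was 10.4% against 18.8% in the lowest class and 19.3% against 30.8% in the highest.

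Some other patterns were more frequent at long-gene sites than in genes under 100 kb. TGANTCA of AP-1 was in 19.3% of sites (17.9 to 20.7), against 15.4% (14.3 to 16.5) in genes under 100 kb, with 9.20% and 7.91% in the flanks. CAGATG was in 36.4% (34.7 to 38.1), against 32.3% (30.9 to 33.8), with 22.5% and 23.4% in the flanks. TTGGCA of NFI factors was in 27.1% (25.5 to 28.7), against 22.6% (21.3 to 23.9), with 14.3% and 14.7% in the flanks. In genes of 100 to 300 kb the AP-1 pattern was in 17.4% (16.3 to 18.7), CAGATG in 35.0% (33.5 to 36.6) and TTGGCA in 26.5% (25.1 to 27.9). Each of these intervals overlapped that of long-gene sites. The E-box CAGCTG was in 26.5% of long-gene sites, against 26.6% in genes under 100 kb, and the intervals overlapped. GGGCGG of SP and KLF factors was in 8.73% (7.78 to 9.79), against 13.7% (12.6 to 14.7), with 3.42% and 6.83% in the flanks, so that the ratio of sites to flanks was 2.55 in long genes and 2.00 in genes under 100 kb. The AP-1 pattern was rarely footprinted, at 8.42% of the sites that hold it in replicate 1 and 10.8% in replicate 2, and CAGATG at 29.7% and 29.4%. The median GC content of the windows was 48.7% in long genes, against 51.7% in genes under 100 kb, and its part in these shares was not tested.

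**Figure D5:**
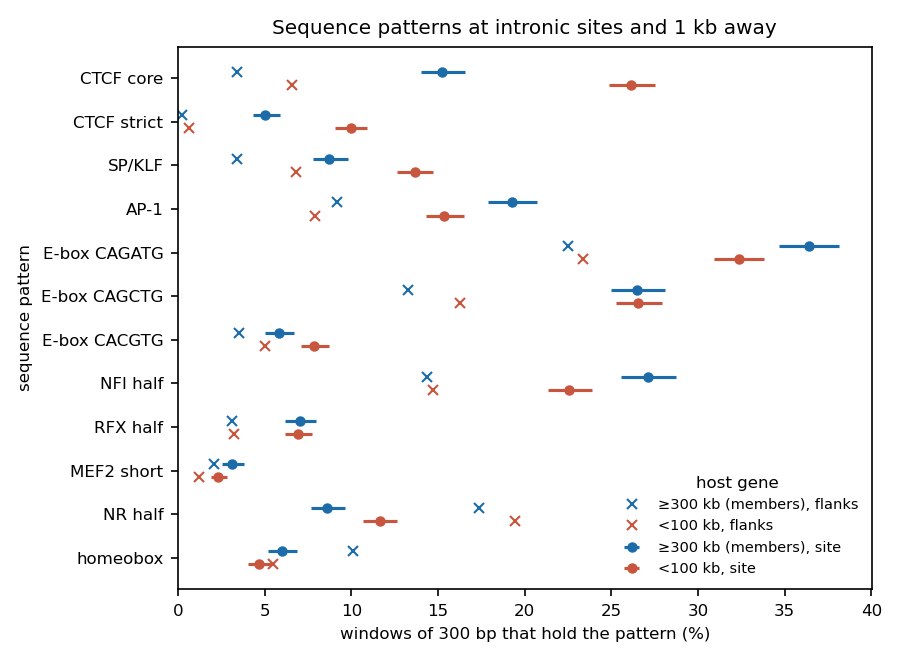
Share of 300 bp windows that hold each pattern (horizontal axis, %), at sites (points, bars are 95% Wilson intervals) and in flanks 1 kb away (crosses), for genes of 300 kb or more and genes under 100 kb. The CTCF core pattern stands at 15.2% at long-gene sites, against 26.2%, and the AP-1 pattern at 19.3%, against 15.4%.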

How the data were processed

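DNase-seq libraries of 2 mice were used as deposited on mm10 (GRCm38), each processed on its own, per the deposited file list. The deposited peak lists give a signal, the peak height, whose normalization is not stated and was read here as cuts scaled to depth, since heights were whole multiples of 1 step (within 0.02 of a step). The authors' footprints carry a score of 0.01 throughout, and only their positions were used. The sources used here name no caller, aligner or version. The shorter of the 2 peak lists of each mouse was the main one. Genes came from GENCODE M21 and sequence from RefSeq GRCm38.p6. The height of a site is that of its highest peak in a mouse, and a footprint counts if wholly inside the site. A site in several genes was classed by its longest gene. A match lies in a footprint if at least 50% of it does, and a footprint was found in the other mouse if footprints overlapped by at least 50% of the shorter.

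Named were the 20 genes with the most sites, the 10 densest with at least 5 sites, the 5 longest with none, the 2 with the most and those with none per list, the 10 highest sites, the 5 with the most footprints and the 3 with the largest ratios each way. Members and lists were chosen with earlier results of these data known. Functions were tested on simulated data. Python 3.11.15, NumPy 2.4.6, pandas 2.3.3, SciPy 1.17.1 and matplotlib 3.10.9 were used. The alternatives are given at the end. Some genes that these rules name are not reported here.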

Additional observations from a re-analysis of the deposited data

How the results depend on the processing

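Density in long genes stayed below that in genes under 100 kb under every alternative but weighting by GC content, which was added after the data were seen and turned the log2 ratio to 0.40, against -0.53 unweighted. With the longer peak lists there were 6221 sites, 20.7 per Mb, a median height of 0.717, a footprint share of 86.5% and a median log2 ratio of heights, replicate 1 over replicate 2, of 0.23. With the higher 50% of peaks these were 1053 sites, 3.50 per Mb, 1.63, 99.4% and 0.37, and the footprint share was then 0.0873 percentage points above that in genes under 100 kb, against 1.07 points below it with all peaks (-1.07). With genes of 500 kb or more there were 1623 sites, a footprint share of 95.8% and a ratio of 0.26. With 1 mouse alone, sites were 4535 to 5084, density 15.1 to 16.9 per Mb, median height 0.791 to 0.918, footprint share 86.2 to 90.8% and its difference from genes under 100 kb -3.14 to 0.66 points, the last with replicate 1 alone. Dividing heights by each library's median over sites of both mice turned the log2 ratio to -0.20. This scaling shifts the log2 ratio of every site by the same amount. Before it, the median was 0.30 at long-gene sites, against 0.46 over all sites of both mice. The causes of the other changes were not tested. Leaving out Fgfr2, sites also inside a shorter gene, or genes under 300 kb in RefSeq (an alternative added after the data were seen) gave 2968, 2957 and 2898 sites, with density, height, footprint share and ratio within the spread of the main values; of the 55 sites of Fgfr2, 24 lay in no shorter gene. No paired analysis between groups was possible because there was 1 group, and classes of sites were compared within each mouse. Peak lists give no value under their threshold, so a site listed in 1 mouse may be open in the other.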

Other observations

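Some long genes, chosen after their values were seen, held many more sites in replicate 1 than in replicate 2. Over all long genes there were 5084 sites in replicate 1 and 4535 in replicate 2. Of these, 2061 and 1512 had a peak in that mouse alone. Tcf4, a bHLH transcription factor, had 44 sites in replicate 1 and 7 in replicate 2, and 7 sites of both mice. Arid1b, a subunit of the BAF chromatin remodelling complex, had 35 and 11, the receptor phosphatase Ptprt 42 and 18, and Gse1 37 and 16. The reverse was seen in Mid1, with 6 and 17, and in the cAMP phosphodiesterase Pde4b, with 11 and 21. With 1 library per mouse these counts describe the libraries.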
